A study of Mus musculus with 3 samples.

Results

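The annotated mouse genome holds noncoding genes that start beside a protein-coding gene and run away from it on the other strand, and GENCODE types them as bidirectional promoter lncRNAs. The gene tables held 189 genes whose transcripts all carried that type, and the 36 whose expected count averaged 10 or more over the 3 libraries are described here. An expected count is the number of reads assigned to a gene, with reads that match several genes divided between them. No symbol among the 189 started with Snhg, and 25 further genes with transcripts of mixed types were not used. The 36 lncRNAs were thus chosen by their measured counts in these libraries, so their levels are descriptions without a test. Of the other 153 genes, 65 had a count of 0 in every library and 88 had some reads but fewer than the minimum. Just inside the minimum were Gm9776, with 12, 11 and 8 expected counts in libraries 1 to 3, and AC133451.1, with 10, 10 and 13. Just outside it were Gm10614, with 9, 9 and 10, and CT025652.2, with 4, 9 and 15. The minimum was reached in every library by 28 of the 36 lncRNAs.

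RNA came from the chromatin fraction of bone-marrow-derived macrophages, phagocytes grown in culture from marrow precursors, of C57BL/6J mice. All cells had received 100 ng/ml lipid A, the endotoxin part that activates the receptor TLR4, for 30 min, and ribosomal RNA was depleted before total RNA was sequenced. The 3 libraries are numbered as biological replicates under the same donor record, so it is unknown whether the mice were separate, and the spread between libraries may be technical. The starting RNA amounted to 1 µg in library 1, 250 ng in library 2 and 500 ng in library 3, and these amounts cannot be told apart from other differences between libraries. No untreated library was analysed here, so nothing below is an induction.

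Active promoters, above all those in CpG islands, commonly start transcription in both directions. The RNA made away from the gene is usually short, stops at early poly(A) sites and is degraded by the nuclear exosome, whereas U1 small nuclear ribonucleoprotein protects the coding direction from early cleavage. Some of these upstream RNAs are longer, spliced and stable enough to be annotated as lncRNA genes, and chromatin-bound RNA is a fraction in which short-lived nuclear transcripts are retained.

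Annotated mouse genes took 16301150, 17033725 and 16205704 expected counts in libraries 1 to 3, and 14396 of 55536 genes averaged 10 or more. In libraries 1 to 3, a count of 0 allows up to 3 counts, or 0.184, 0.176 and 0.185 CPM (counts scaled to the library total), which covers counting error only. All 10 macrophage markers were detected, with a summed level of 701 to 1074 TPM. TPM is a count divided by the effective length of the transcript, with the sum over all entries set to the same value in each library. Of 18 markers of other cell types, including Ms4a1, Cd3e, Ly6g and Flt3, 6 were at 0 in all libraries, and the summed level was 0.35 to 1.51 TPM. The 2 that reached a mean count of 10 were stromal markers. Col1a1 had 0.01, 0.22 and 0.34 TPM in libraries 1 to 3, and Col1a2 had 0.02, 0.32 and 0.35 TPM. The other stromal marker, Pdgfra, had 0.01, 0.02 and 0 TPM.

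The annotated starts of the lncRNAs lay close to those of protein-coding genes. A partner was defined as the protein-coding gene on the opposite strand with the nearest gene 5′ end within 1000 bases, and 33 of the 36 lncRNAs had such a partner. In 18 pairs the starts lay 15 to 519 bases apart, with the genes running away from each other. In the other 15 pairs the 5′ ends of the gene bodies overlapped by 101 to 838 bases. The median distance was 165 bases, and 23 pairs lay within 300 bases. By the starts of single transcripts in place of gene ends, AC114539.1 started 85 bases from Nfkb2, Ndufb1-ps started 61 bases from Cpsf2, and AW046200 overlapped Galnt7 by 241 bases. Chromosome 12 held 8 of the 36 lncRNAs, the largest number on any of the 13 chromosomes with members, and chromosome 8 held 6.

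**Figure D1:**
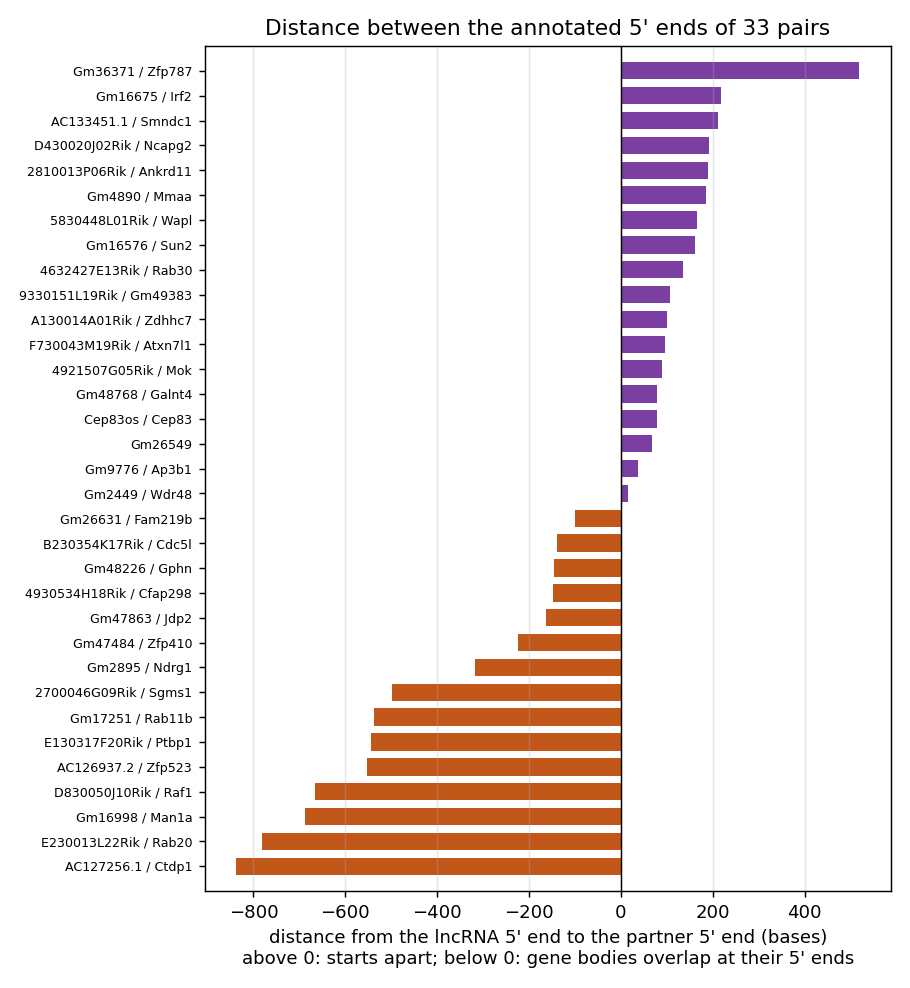
Distance in bases (horizontal axis) from the annotated 5′ end of each lncRNA to that of its protein-coding partner, 1 bar for each of 33 pairs, of which 1 is labelled by the lncRNA alone. Purple bars above 0 are the 18 pairs with starts 15 to 519 bases apart, and orange bars below 0 are the 15 pairs whose gene bodies overlap by 101 to 838 bases.

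Promoter windows that show this arrangement are given below from RefSeq, build GRCm38.p6, on the strand of the named gene. Each holds 300 bases, from 250 before to 50 after the RefSeq gene start. They were chosen for the pair with the largest excess of the lncRNA, the pair with the shortest gap, both pairs with the largest excess of the partner, and the lncRNA beside a gene of the NF-kB pathway. Capitals mark the bases between the GENCODE starts of the lncRNA and of its partner, both starts included. The RefSeq start of Gm2449, at base 119894912, lies 49 bases from its GENCODE start, which is the last base of the window. By that RefSeq start Gm2449 would overlap Wdr48, which starts at base 119894878. The 4632427E13Rik window is chr7:92741410-92741709 on the minus strand, the Gm2449 window chr9:119894863-119895162 on the minus strand, the Gm16675 window chr8:46739466-46739765 on the minus strand and the Gm9776 window chr13:94358874-94359173 on the minus strand. For AC114539.1 the window is that of its neighbour Nfkb2, chr19:46305445-46305744 on the plus strand.
4632427E13Rik (partner Rab30): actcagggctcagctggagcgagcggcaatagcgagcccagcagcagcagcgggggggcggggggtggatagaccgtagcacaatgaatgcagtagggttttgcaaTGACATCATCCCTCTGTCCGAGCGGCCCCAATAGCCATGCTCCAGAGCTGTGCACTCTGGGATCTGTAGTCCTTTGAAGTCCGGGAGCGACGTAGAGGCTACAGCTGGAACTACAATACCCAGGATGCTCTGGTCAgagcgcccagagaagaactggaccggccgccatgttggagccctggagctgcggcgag
Gm2449 (partner Wdr48): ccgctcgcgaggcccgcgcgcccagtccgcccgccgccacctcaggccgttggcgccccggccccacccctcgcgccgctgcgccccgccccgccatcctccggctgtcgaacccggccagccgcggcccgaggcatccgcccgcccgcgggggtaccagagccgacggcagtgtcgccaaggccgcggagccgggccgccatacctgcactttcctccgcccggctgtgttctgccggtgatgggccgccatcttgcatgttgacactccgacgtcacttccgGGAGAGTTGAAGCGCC
Gm16675 (partner Irf2): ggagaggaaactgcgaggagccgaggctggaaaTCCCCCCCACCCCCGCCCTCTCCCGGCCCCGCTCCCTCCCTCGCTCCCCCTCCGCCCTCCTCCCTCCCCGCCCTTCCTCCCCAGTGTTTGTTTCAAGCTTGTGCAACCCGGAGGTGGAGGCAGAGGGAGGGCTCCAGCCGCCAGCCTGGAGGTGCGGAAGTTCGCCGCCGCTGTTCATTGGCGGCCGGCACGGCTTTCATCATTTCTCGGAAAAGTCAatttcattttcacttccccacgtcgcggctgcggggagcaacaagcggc
Gm9776 (partner Ap3b1): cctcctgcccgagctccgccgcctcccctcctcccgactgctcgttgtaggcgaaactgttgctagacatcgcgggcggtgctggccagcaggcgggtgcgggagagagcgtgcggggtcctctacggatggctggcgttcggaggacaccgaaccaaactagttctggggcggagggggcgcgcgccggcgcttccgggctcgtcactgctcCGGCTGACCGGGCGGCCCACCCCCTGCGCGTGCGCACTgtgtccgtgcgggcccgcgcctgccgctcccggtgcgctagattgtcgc
Nfkb2 (beside AC114539.1): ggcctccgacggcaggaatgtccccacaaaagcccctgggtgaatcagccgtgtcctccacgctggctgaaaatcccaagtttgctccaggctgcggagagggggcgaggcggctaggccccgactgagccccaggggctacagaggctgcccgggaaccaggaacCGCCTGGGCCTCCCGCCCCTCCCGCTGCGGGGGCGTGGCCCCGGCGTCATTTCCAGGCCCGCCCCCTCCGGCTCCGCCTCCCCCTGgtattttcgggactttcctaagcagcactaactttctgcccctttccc

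The stretch between the starts is 136 bases long in the 4632427E13Rik window, 16 in the Gm2449 window, 218 in the Gm16675 window, 38 in the Gm9776 window and 86 in the Nfkb2 window. The windows were rich in G, C and the dinucleotide CpG. RefSeq windows were found for 21 of the 36 lncRNAs, and 16 of them started within 100 bases of the GENCODE start and were used. Their median G+C content was 68.3% and their median ratio of observed to expected CpG was 0.96, against 56.3% and 0.58 over the windows of 17492 protein-coding genes. The TATA sequence TATAAA, searched on both strands like every motif here, was in 0 of 16 windows and in 13.3% of protein-coding windows. GGGCGG, the core of the GC box bound by Sp factors, was in 10 of 16 windows (62.5%, against 46.3% of protein-coding windows). TGACG, part of the CREB and ATF site, was in 7 (43.8%, against 23.8%), CCGGAA, the core of the ETS site, in 5 (31.3%, against 19.1%) and CCAAT, the NF-Y box, in 5 (31.3%, against 39.0%). CATGCGC, the core of the NRF1 site, was in 2 (12.5%, against 4.89%). The NF-kB consensus was in 2 (12.5%, against 8.86%), of which 1 was the Gm16675 window, where it lay on the other strand from base 29 and partly inside the capitals. The Nfkb2 window held 2 matches to that consensus, from base 261 as printed and from base 15 on the other strand, both outside the capitals. These shares rest on 16 windows, and a match is a description of letters, not of binding. The protein-coding windows were taken whether or not the gene was detected here, while 30 of the 33 partners were detected. Windows of detected protein-coding genes alone, or of the partners, were not compared.

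The lncRNAs were few in reads and low in level. Together the 36 took 0.0234%, 0.0169% and 0.0301% of expected counts in libraries 1 to 3 (mean 0.0235% ± 0.0066, SD, n = 3). Their median level was 0.705, 0.63 and 1.435 TPM in libraries 1 to 3 (0.923 ± 0.445 TPM), against 3.98 ± 1.50 TPM over all 14396 detected genes. Mean levels ran from 0.223 TPM for Gm9776 to 26.7 TPM for E230013L22Rik, with 17 lncRNAs at 1 TPM or more, 5 at 5 or more and 3 at 10 or more. Of all annotated genes of the type, 19.05% were detected, against 22.6% of 2948 antisense genes, 6.96% of 5844 lincRNA genes and 42.5% of 327 sense intronic genes. Detected antisense genes had a median of 1.90 ± 0.73 TPM and detected lincRNA genes one of 1.48 ± 0.72 TPM. Reads were concentrated on few genes, since 4632427E13Rik alone held 26.2% of the members' expected counts, the top pair 49.6% and the top 3 genes 59.6%. The total was small enough that 17 lncRNAs had a mean count under 30, and 7 reached 100.

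**Figure D2:**
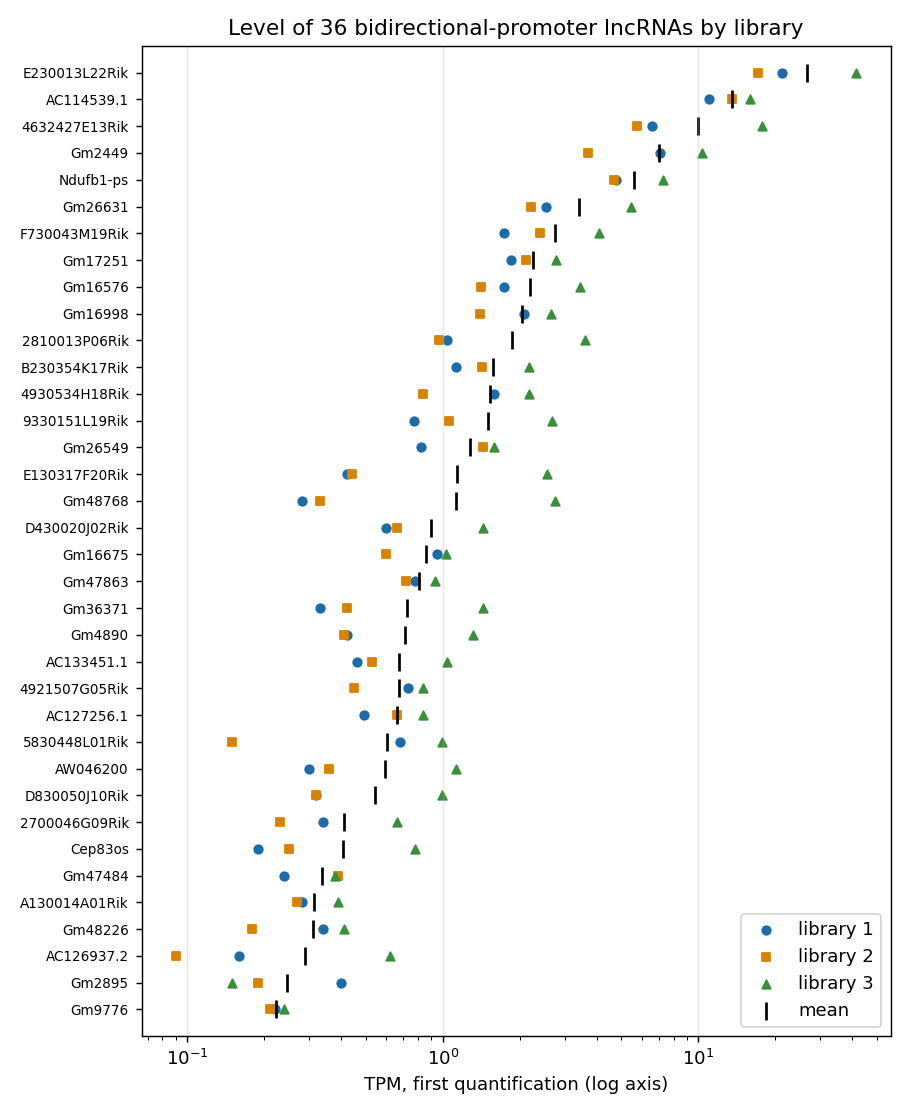
Level of each of the 36 lncRNAs in TPM of the first quantification (horizontal log axis) in libraries 1 to 3 (circles, squares, triangles), with the mean of the 3 libraries as a black tick. Means run from 0.223 TPM for Gm9776 to 26.7 TPM for E230013L22Rik, and library 3 is the highest for 34 of 36 lncRNAs on this scale.

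The lncRNA with the highest level was E230013L22Rik (ENSMUSG00000096957.1, chr8:11477929-11480241, plus strand), which has 2 exons and overlaps the 5′ end of Rab20, a small GTPase of endosomes and phagosomes. It had 939, 682 and 1088 expected counts, or 21.2, 17.2 and 41.6 TPM, in libraries 1 to 3. AC114539.1 (chr19:46303591-46305611, minus strand) starts inside the gene body of Nfkb2 (chr19:46304320-46312385), the gene of the NF-kB precursor p100. Its start lies 85 bases from a transcript start of that gene. Of its 1764 exon bases, 531 (30.1%) lie over Nfkb2 exons, where reads may belong to either gene. AC114539.1 had 461, 313 and 392 expected counts, or 11.0, 13.6 and 15.9 TPM. 4632427E13Rik (chr7:92734166-92741468, minus strand), beside Rab30, a small GTPase of the Golgi, had 900, 703 and 1431 expected counts, or 6.56, 5.73 and 17.7 TPM. Library 3 had the highest TPM of these 3 lncRNAs, as it had for 34 of all 36. TPM was shifted up in that library for detected genes in general, whose median log2 TPM lay 0.52 above the gene's own mean in library 3, and -0.37 and -0.14 from it in libraries 1 and 2. Libraries are therefore compared below in log2 CPM with TMM scaling, where those medians were -0.003, -0.013 and 0.026 in libraries 1 to 3.

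The next 5 lncRNAs in level had means between 2.25 and 7.04 TPM. Gm2449 (chr9:119887449-119894863), whose start lies 15 bases from that of Wdr48, a cofactor of the deubiquitinase USP1, had 7.09, 3.70 and 10.3 TPM in libraries 1 to 3. Ndufb1-ps (chr12:101968090-101977068), named as a pseudogene of a respiratory complex I subunit, had 4.78, 4.67 and 7.29 TPM. Gm26631 (chr9:57531287-57537629), which overlaps the 5′ end of Fam219b, had 2.54, 2.21 and 5.44 TPM. These 3 rest on different depths, with mean expected counts of 52.3 for Gm2449, 73.7 for Ndufb1-ps and 159 for Gm26631. F730043M19Rik (chr12:33111711-33147597), beside Atxn7l1, had 1.73, 2.40 and 4.09 TPM. Gm17251 (chr17:33759992-33761870), which overlaps the 5′ end of Rab11b, a small GTPase of recycling endosomes, had 1.85, 2.11 and 2.78 TPM. In both, library 3 was again the highest on the TPM scale.

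The lncRNAs differ in annotated structure. Merged exons spanned 662 to 7303 bases with a median of 2306.5, 24 genes had a single transcript, and 23 had transcripts with more than 1 exon. The 23 multi-exon genes had a median of 1.64 ± 0.83 TPM and the 13 single-exon genes one of 0.55 ± 0.38 TPM (SD over 3 libraries). A mean of at least 2 TPM was reached by 10 of the multi-exon and 0 of the single-exon genes, with the count minimum acting on both. The poly(A) signal AATAAA or its variant ATTAAA lay in the last 50 bases of the longest transcript in 24 of 36 lncRNAs (66.7%), against 72.2% of 21866 protein-coding genes. In 4632427E13Rik the transcript 4632427E13Rik-202 took 55.8%, 54.9% and 54.7% of the gene's abundance in libraries 1 to 3. Transcripts 4632427E13Rik-201 and 4632427E13Rik-204 differ by 21 bases in length, and their shares changed place. The first of them had 38.4%, 0% and 1.31% in libraries 1 to 3, the other 5.82%, 42.6% and 41.3%, and their sum was 44.3%, 42.6% and 42.6%. The division between them is therefore uncertain, while their sum varied little.

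The lncRNAs lay far below their protein-coding partners. In 32 pairs with reads on the partner, the median log2 ratio of lncRNA to partner, each at TPM + 0.1, was -3.90, -4.24 and -3.76 in libraries 1 to 3 (mean -3.97 ± 0.25), which puts the lncRNA 15.6-fold lower. The median of mean levels was 0.86 TPM for the lncRNAs and 10.9 TPM for the partners over the 33 pairs. In 19 of the 32 pairs the lncRNA was at least 10-fold lower. In 27 of 33 pairs it was below its partner in every library, and in 2 it was above it in every library. The partner of 1 of these 2 had a count of 0 throughout. With 3 libraries, the exact two-sided permutation of signs gives no p below 0.25, so no pair was tested. Pairs with starts apart had a median log2 ratio of -3.85 ± 0.47 (17 pairs) and those with overlapping 5′ ends one of -3.96 ± 0.29 (15 pairs), a difference smaller than the spread between libraries. Spearman's rho between lncRNA and partner across the 32 pairs was 0.064 for mean TPM and 0.067, 0.029 and 0.104 in libraries 1 to 3. The points of that correlation share libraries and depth, and it is a description.

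**Figure D3:**
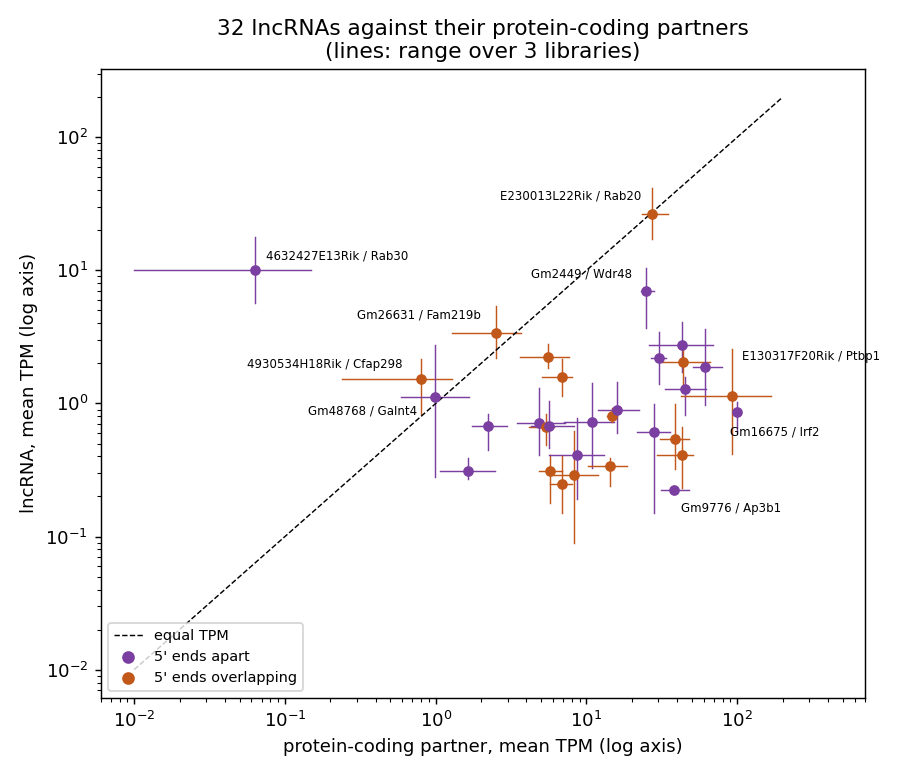
Mean TPM of 32 lncRNAs (vertical log axis) against mean TPM of their protein-coding partners (horizontal log axis), with lines for the range over 3 libraries and a dashed line at equal level. Most points lie below the dashed line, 4632427E13Rik lies far above it, and E230013L22Rik lies on it at 26.7 TPM for the lncRNA and 27.3 TPM for Rab20.

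The largest excess of a lncRNA was that of 4632427E13Rik, with 900, 703 and 1431 expected counts in libraries 1 to 3, against 1, 3 and 7 for Rab30. The TPM values were 6.56, 5.73 and 17.7 for 4632427E13Rik, against 0.03, 0.01 and 0.15 for Rab30, with no overlap in range. The log2 ratio was 5.85 ± 0.26, and the ratio of summed expected counts was 276, with an exact binomial 95% interval of 154 to 553 for counting error. The size depends on the quantification. A second deposited quantification of the same reads gave Rab30 1.59, 1.44 and 1.62 TPM, with 408, 512 and 350 estimated counts, and 4632427E13Rik 7.59, 4.62 and 15.3 TPM, for a log2 ratio of 2.32 ± 0.78. The lncRNA was above Rab30 in every library in both.

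The second lncRNA above its partner in every library was 9330151L19Rik, with 0.77, 1.06 and 2.67 TPM, beside the gene model Gm49383, which is listed at 0 in every library in both quantifications, so no fold is given. It had no partner by transcript starts, a search that left out transcripts tagged as readthrough between genes. The Gm49383 start, 107 bases away by gene ends, fell out of that search, so its transcript carries that tag. Of the 2545 exon bases of 9330151L19Rik, 1107 (43.5%) lie over exons of Dnaaf2 on the opposite strand. Ndufb1-ps, with 4.78, 4.67 and 7.29 TPM, was also above its neighbour by transcript starts, Cpsf2, a subunit of the cleavage and polyadenylation complex, with 1.67, 1.91 and 3.40 TPM, for a log2 ratio of 1.26 ± 0.19. That direction turned without length correction, at -1.86 ± 0.23 in log2 CPM (80, 70 and 71 expected counts for Ndufb1-ps, against 247, 257 and 302 for Cpsf2), and was 2.11 ± 0.17 in the second quantification. E230013L22Rik had 21.2, 17.2 and 41.6 TPM, against 23.4, 23.7 and 34.7 TPM for Rab20. The levels of E230013L22Rik and Rab20 overlapped, with a log2 ratio of -0.11 ± 0.36, and the ratio turned to 0.06 without library 2 and to 0.25 in the second quantification. Gm26631 had 2.54, 2.21 and 5.44 TPM, against 1.28, 2.56 and 3.66 TPM for Fam219b, for a log2 ratio of 0.43 ± 0.58. 4930534H18Rik had 1.59, 0.84 and 2.17 TPM, against 0.24, 1.29 and 0.87 TPM for Cfap298, a protein of motile cilia, for a log2 ratio of 0.99 ± 1.45. In the last 2 pairs the SD exceeded the ratio in this measure, and the lncRNA was above its partner in 2 of 3 libraries. For Gm26631 the ratio was 0.45 ± 0.22 in log2 CPM and 0.42 ± 0.14 in the second quantification, where it exceeded the SD. For 4930534H18Rik it was 0.78 ± 0.86 and 1.00 ± 1.13, where it did not.

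The 4 lowest ratios were those of lncRNAs beside partners with mean levels of 37.8 to 99.3 TPM. Gm9776, with 0.22, 0.21 and 0.24 TPM, stood beside Ap3b1, a subunit of the adaptor complex AP-3 of lysosomal traffic, with 31.1, 34.7 and 47.6 TPM, for a log2 ratio of -6.85 ± 0.27. Gm16675, with 0.95, 0.60 and 1.03 TPM, stood beside Irf2, a transcription factor of the interferon system, with 98.2, 97.5 and 102.1 TPM, for a log2 ratio of -6.72 ± 0.35. These 2 pairs have the windows printed above, with 37 and 217 bases between their starts. 2700046G09Rik, with 0.34, 0.23 and 0.66 TPM, overlapped the 5′ end of Sgms1, a sphingomyelin synthase, with 48.7, 29.4 and 51.0 TPM, for a log2 ratio of -6.45 ± 0.36. E130317F20Rik, with 0.42, 0.44 and 2.56 TPM, overlapped that of Ptbp1, a splicing repressor, with 42.5, 66.4 and 166 TPM, for a log2 ratio of -6.42 ± 0.49. In all 4 pairs the lowest value of the partner was far above the highest of the lncRNA. In the second quantification the log2 ratio was -4.29 ± 0.20 for Gm9776, which was then no longer among the 4 lowest, -7.84 ± 0.45 for 2700046G09Rik, -7.37 ± 0.47 for E130317F20Rik and -6.46 ± 0.23 for Gm16675.

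Further pairs lay between these ends. AC114539.1, with 11.0, 13.6 and 15.9 TPM, was below Nfkb2, with 77.3, 75.7 and 71.9 TPM, for a log2 ratio of -2.48 ± 0.31. Gm2449, with 7.09, 3.70 and 10.3 TPM, was below Wdr48, with 23.0, 23.7 and 28.0 TPM, for a log2 ratio of -1.92 ± 0.64. F730043M19Rik was below Atxn7l1, which had 33.1, 26.0 and 69.5 TPM, by a log2 ratio of -3.87 ± 0.43. These lncRNAs were among the 8 with the highest levels and lay below their neighbours in every library of the first quantification. In the second, Gm2449 and Wdr48 were level, with a log2 ratio of -0.024 ± 0.44, and F730043M19Rik stood at -3.14 ± 0.23 from Atxn7l1. Gm17251 was below Rab11b, which had 3.65, 5.31 and 7.61 TPM, by a log2 ratio of -1.22 ± 0.25. Cep83os, with 0.19, 0.25 and 0.78 TPM, was below Cep83, a protein of centriole appendages, with 5.65, 7.03 and 13.1 TPM, by a log2 ratio of -4.19 ± 0.24.

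Genes of the machinery known to limit upstream RNAs were detected. Of 20 matched genes of the nuclear exosome and its adaptors, 17 reached a mean count of 10, and the highest were Srrt (52.8, 75.8 and 105 TPM), Zfc3h1 (41.4, 55.1 and 72.7 TPM) and Pabpn1 (35.5, 44.3 and 68.6 TPM). The exosome genes Exosc3, Exosc4 and Exosc6 did not reach it, and Exosc6 was at 0 in every library. Among Exosc1 to Exosc9 the highest was Exosc7, at 6.70 ± 2.34 TPM. All 24 Integrator and cleavage factors were detected, led by Pcf11 at 72.6 ± 31.0 TPM, and 8 of 10 U1 protein genes were, led by Snrnp70 at 145 ± 40.4 TPM. The median levels were 5.19 ± 1.79 TPM for the exosome list, 8.19 ± 2.50 TPM for the Integrator and cleavage list and 1.63 ± 0.35 TPM for the U1 list, beside 3.98 ± 1.50 TPM over all detected genes. With no library in which these factors were changed, their levels say nothing of the lncRNAs.

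The lncRNAs varied between libraries, with library 2 at the low end. In log2 CPM, 24 of the 36 were lowest in library 2, 8 in library 3 and 4 in library 1, and their median deviation from the gene's own mean was 0.15, -0.36 and 0.18 in libraries 1 to 3. Library 2 was the lowest for 66.7% of the lncRNAs and for 31.3% of 32 partners, 30.3% of detected protein-coding genes and 35.9% of all detected genes. Other noncoding classes had shares between those, with 66.2% of sense intronic genes, 60.1% of TEC genes, a provisional class of the annotation,, 58.2% of lincRNA genes and 49.9% of antisense genes lowest in library 2. The lower values in library 2 were therefore shared with other noncoding classes. Library 2 is the library made from 250 ng, and the part of the starting amount in this was not tested. In bulk RNA, fewer cells with a transcript and less of it per cell cannot be told apart. The median range over libraries was 0.90 for the lncRNAs, 0.39 for the partners and 0.54 for all detected genes, with lower counts for the lncRNAs. The lncRNA and its partner had the same highest library in 16 of 32 pairs. Libraries 1 to 3 were the highest for 41.7%, 8.33% and 50% of the lncRNAs and for 34.4%, 28.1% and 37.5% of the partners. Some matches arise from these shares alone, and the number was not worked out, so the 16 pairs are no sign of a link.

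**Figure D4:**
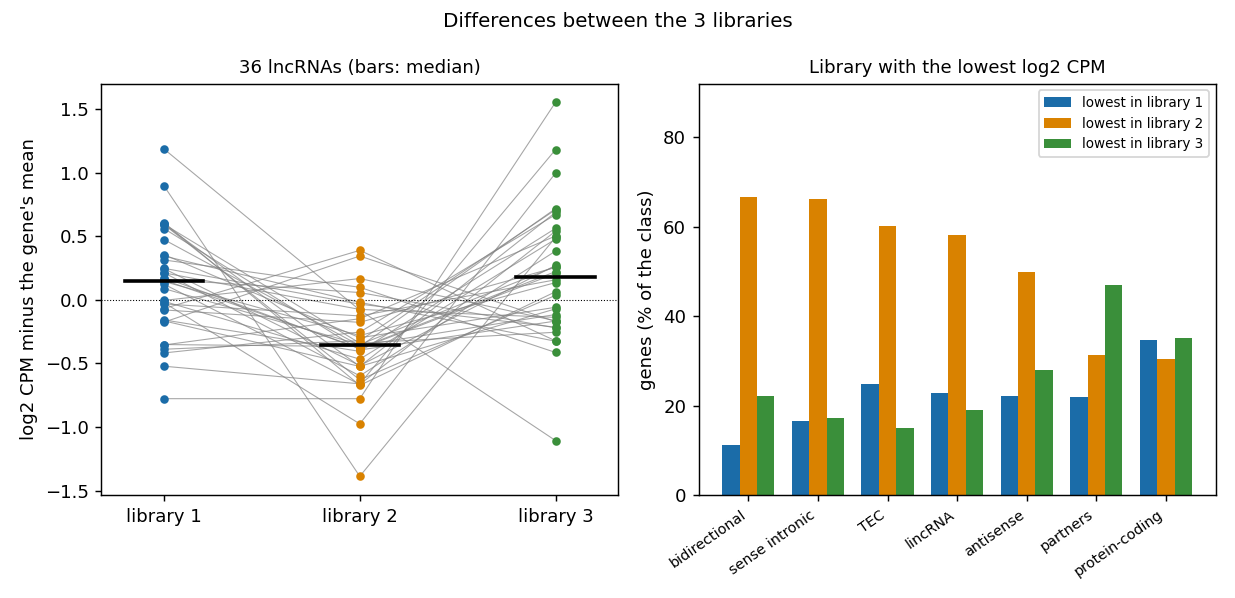
Left, log2 CPM minus the gene's own mean (vertical axis) for 36 lncRNAs in libraries 1 to 3, with grey lines joining a gene and black bars at medians of 0.15, -0.36 and 0.18. Right, percent of genes of each class whose lowest log2 CPM was in library 1, 2 or 3, where library 2 is the lowest for 66.7% of the lncRNAs and 30.3% of protein-coding genes.

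No lncRNA was called as varying between libraries more than genes of its abundance. The test was an edgeR quasi-likelihood fit with the mean alone, Benjamini-Hochberg adjustment over 13309 genes and a threshold of 0.05, which called 0 genes (0%), and 4.92% of genes had an unadjusted p below 0.05. Alternatives called 0.488% of genes with no filter on low counts, 0.0321% in a second quantification of the reads, 0.125% without library 1 and 0.36% without library 2, and 0 lncRNAs in each. Of the 36 lncRNAs, 27 passed the filter on low counts and entered the test, 0 were called, and 2 had an unadjusted p below 0.05. Gm48768 had the widest range of log2 CPM, 2.33, with 16, 17 and 92 expected counts, so that library 3 stood far above the others, and the unadjusted p was 0.0050 with an edgeR adjusted p of 0.66. Its partner Galnt4, an enzyme of mucin-type glycosylation, had 0.59, 0.73 and 1.66 TPM, against which Gm48768 had 0.28, 0.33 and 2.76 TPM. E130317F20Rik, with 35, 34 and 130 expected counts and an edgeR adjusted p of 0.87, was the other. The next widest ranges were those of Gm2895, 2.29, with 32, 14 and 7 expected counts, and 5830448L01Rik, 2.28, with 20, 4 and 17 expected counts, and neither passed the filter. Gm2895 overlaps the 5′ end of Ndrg1 and 5830448L01Rik starts beside Wapl, a factor that releases cohesin from chromatin. In library 2, 5830448L01Rik had 4 counts, near the limit that a count of 0 allows.

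The levels of some lncRNAs depend on how reads were assigned. The second quantification gave 33 of the 36 a higher level, and the median log2 difference, second over first, was 0.60, beside 0.48 over all detected genes. Across the 36, Spearman's rho between the 2 quantifications of the same reads was 0.82. The difference exceeded 2 for 4 lncRNAs. AC133451.1, beside the splicing factor gene Smndc1, had 229, 185 and 262 estimated counts in the second and 10, 10 and 13 expected counts in the first, for a log2 TPM difference of 3.69 ± 0.48. Gm9776 had 190, 181 and 227 estimated counts and 12, 11 and 8 expected counts, for a difference of 3.05 ± 0.42. Gm2449 had 410, 279 and 442 estimated counts and 71, 31 and 55 expected counts, for a difference of 2.62 ± 0.10. The 2 lncRNAs just above the count minimum were thus the 2 with the largest gap, and the low level of Gm9776 beside Ap3b1 rests on the first quantification. The other was B230354K17Rik, beside the spliceosome gene Cdc5l, with a difference of 2.01 ± 0.58. 4632427E13Rik and E230013L22Rik differed by -0.10 ± 0.27 and 0.35 ± 0.23.

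**Figure D5:**
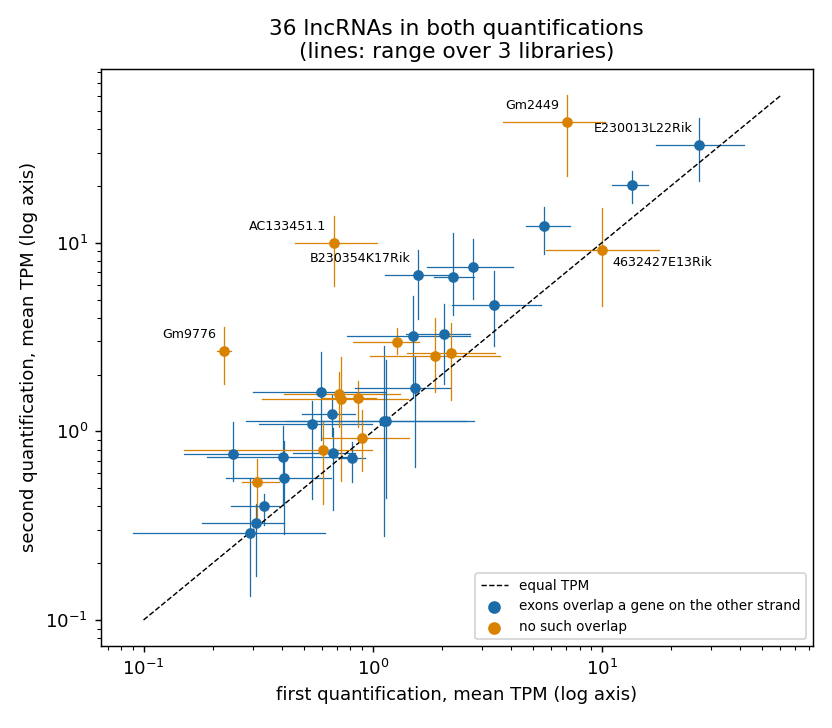
Mean TPM of the 36 lncRNAs in the second quantification (vertical log axis) against the first (horizontal log axis), with lines for the range over 3 libraries and a dashed line at equal level. AC133451.1, Gm9776 and Gm2449 lie farthest above the line, by 3.69, 3.05 and 2.62 in log2, and blue points mark lncRNAs whose exons overlap a gene on the other strand.

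Exons of 23 lncRNAs overlapped exons of a gene on the opposite strand and those of 0 overlapped exons on the same strand. The strand setting of the counting is not given in the sources used here, so reads in these overlaps may belong to either gene. Among others, this touches 9330151L19Rik with 1107 shared exon bases, B230354K17Rik with 1091, Gm48768 with 841, AC114539.1 with 531 and E230013L22Rik with 356. The median log2 difference between quantifications was 0.58 for the 23 lncRNAs with such an overlap and 0.74 for the 13 without it. Of the 4 lncRNAs whose quantifications differed by more than 2 in log2, 1 had such an overlap.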

How the data were processed

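Total RNA from macrophage chromatin was sequenced in 3 libraries that form 1 group. The authors deposited tables per gene and per transcript, on mm10 and GENCODE M21 according to their file notes. The first quantification holds expected counts and TPM, and for each transcript its percent of the abundance of the gene, per the file headers. The second holds estimated counts and TPM of the deposited libraries, per the file headers. The layouts resemble RSEM and kallisto output, but which tools and strand setting were used is not given in any source at hand. TPM carries no depth.

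The lncRNAs and gene lists were chosen with earlier results of these data known. Gene type came from the transcript names in the second quantification, and coordinates, exons and partners from GENCODE M21. Ratios used TPM + 0.1, paired within a library. Spread was tested on rounded expected counts in edgeR 4.0.16 (R 4.3.3), with TMM scaling, filterByExpr and a quasi-likelihood fit of the mean alone. The F ratio of each gene's deviance to the trended prior was used, with Benjamini-Hochberg adjustment. The procedure was tested on simulated data, where only genes with more counts than most of the lncRNAs were changed. That simulation gives no measure of sensitivity for lncRNAs with few counts. Log2 CPM had a prior count of 0.5. Promoter windows are from RefSeq. A planned count of splice and poly(A) signals in genomic sequence was not run. Lists of lipid A response (51 of 51 genes detected, median 111 TPM), interferon response (29 of 29, 19.1 TPM), DNA repair and cell cycle (23 of 24, 7.46 TPM) and chromatin regulators (28 of 28, 27.4 TPM) served to mark partners, and the exosome, Integrator and cleavage, U1 and cell type lists are given with the results.

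Named lncRNAs are the 8 with the highest mean TPM, the 2 nearest the count minimum on either side, the 4 pairs at either end of the ratio to the partner, the 3 with the widest range, the 3 with the largest gap between quantifications, those with a partner on a list, which are not reported here, and those with a common name. 9330151L19Rik is named beside the highest pairs because its partner is at 0, and AW046200, B230354K17Rik and E130317F20Rik's spread were named after their values were seen. Tables and plots were made in Python 3.11.15 with pandas 2.3.3, numpy 2.4.6 and matplotlib 3.10.9. DESeq2 1.42.0 size factors, pseudocounts of 1 and 0.01, other partner windows (300 and 2000 bases), the second quantification and leaving out each library were alternatives.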

Additional observations from a re-analysis of the deposited data

How the results depend on the processing

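The number of lncRNAs that reached the count minimum was 91 in the second quantification and 35 to 38 with 1 library left out. Their share of reads was 0.0202% to 0.0268% with 1 library left out. Their median level was 1.74 TPM in the second quantification, 2.60 TPM when TPM was rescaled over genes of at least 300 nt, and 0.668 to 1.07 TPM with 1 library left out. The median log2 ratio of lncRNA to partner was -2.74 with a pseudocount of 1 and -4.07 to -3.83 with 1 library left out. The number of lncRNAs above their partner in every library was 4 in log2 CPM without length correction and 2 to 4 with 1 library left out, the 4 being without library 2. With partners taken from transcript starts, chosen after seeing the data, 35 pairs had a median of -3.77, with 2 above in every library and 29 in none. Those 2 were 4632427E13Rik and Ndufb1-ps, so only 4632427E13Rik was above its partner in every library under both definitions. The other settings for Ndufb1-ps and Cpsf2, also chosen after seeing the data, gave -1.86 in log2 CPM and 2.11 in the second quantification. For E230013L22Rik and Rab20 the log2 ratio turned to 0.37 in log2 CPM, 0.25 in the second quantification and 0.059 without library 2, with a range of -0.30 to 0.059 when 1 library was left out. Over 32 pairs and 7 settings, 151 of 224 ratios stayed within the spread between libraries, 70 moved beyond it and 3, all of that pair, changed sign. The spread test called 117 genes with no filter on low counts, 7 in the second quantification, 17 without library 1, 49 without library 2 and 0 without library 3, and 0 lncRNAs in each of these. Pearson's r between the quantifications in log2 TPM was 0.861, and 0.832 with counts. The cause of each shift was not tested. Depth limits the 17 lncRNAs with a mean count under 30. No paired analysis was possible because there is 1 group.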
